A study of Mus musculus with 33 samples.

Results

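The Hox genes code for homeodomain transcription factors that give cells along the head-to-tail axis their position. Every row of the gene table whose name was Hoxa, Hoxb, Hoxc or Hoxd followed by a paralogue number was taken, which gave 39 of 24391 genes: 11 in the Hoxa cluster, 10 in Hoxb, 9 in Hoxc and 9 in Hoxd. By the first exon listed for each gene on mm9, the Hoxb members span chr11:96055675-96227705, those of Hoxc chr15:102751562-102865592 and those of Hoxd chr2:74506367-74601810, and Hoxa lies on chromosome 6. PolyA RNA-seq libraries came from embryonic stem (ES) cells of CAST/Ei x 129/Sv/Jae origin, labelled wildtype (here WT) or RepB, with 1 library of each genotype at each of days 0, 5, 6, 7, 8 and 10, or 12 libraries in all. Both genotypes share the hybrid strain background, growth on γ-irradiated mouse embryonic fibroblast feeders with LIF at day 0, removal of feeders, a suspension phase as embryoid bodies and later attachment to gelatin. RepB is named after Repeat B of Xist, the noncoding RNA that silences one X chromosome. The labels do not say how Repeat B was altered, on which allele, or whether the RepB line is 1 clone. The other 21 samples of the series are not analysed here.

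Each Hox cluster is a row of genes read in 1 direction, numbered by paralogue group from the 3′ end. In the embryo, low-numbered (anterior) genes are the first to be transcribed, in the primitive streak, and high-numbered (posterior) genes follow. In ES cells the clusters are textbook targets of the Polycomb complexes, which hold them silent. Retinoic acid, Wnt and Fgf signals and the Cdx factors act on them during axis formation, and the Hox proteins bind DNA together with Pbx and Meis cofactors.

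The libraries held between 3594551 counts (RepB, day 8) and 17773138 counts (WT, day 5), and levels are given as CPM, counts scaled to the same total in each library. A level of 3 counts, taken here as the floor of detection, corresponds to 0.169 CPM in the deepest library and 0.835 CPM in the shallowest. Intervals on single levels are exact 95% Poisson intervals and cover counting error only. The 39 genes together took between 86 counts (RepB, day 5) and 1783 counts (WT, day 10). With 1 library per genotype and day, every p-value below measures how steady a difference was across days or genotypes of 1 time course, and not the spread between cultures. The label ES cell was checked against 8 naive ES cell markers, such as Nanog and Esrrb, whose summed level was 4925 CPM in WT and 5517 CPM in RepB at day 0 and 254 and 336 CPM at day 10. All 8 were detected at day 0.

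Hox RNA was scarce on days 5 and 6 and abundant on days 8 and 10. Over the 39 genes the summed level at days 0, 5, 6, 7, 8 and 10 was 85.1, 8.50, 22.7, 77.1, 189 and 175 CPM in WT. RepB had 89.4, 16.2, 49.0, 93.3, 219 and 154 CPM on the same days. Day 5 was the lowest point and day 8 the highest in both genotypes. The number of members at 1 CPM or more was 21 in WT and 22 in RepB at day 0, 1 and 4 at day 5, and 32 and 31 at day 8. All 39 members had at least 1 count at day 0 in both genotypes.

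**Figure D1:**
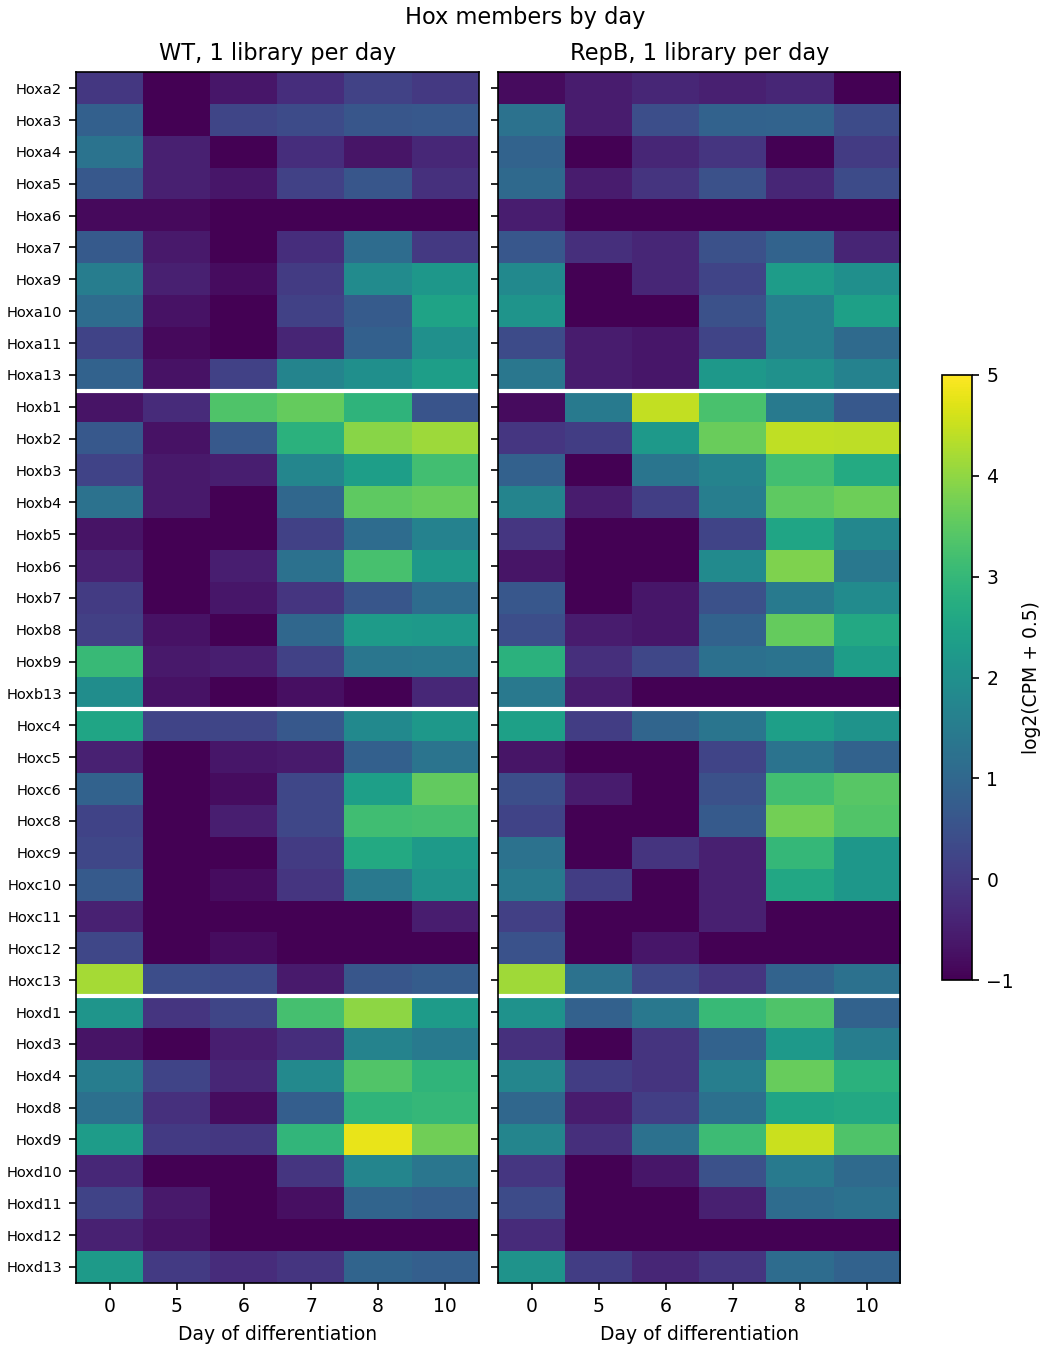
Level of 38 of the 39 Hox genes (rows, by cluster and paralogue number, with white lines between clusters) on each day (columns) in WT and RepB, as log2(CPM + 0.5), 1 library per cell of the grid. Days 5 and 6 are dark for nearly all rows in both genotypes, days 8 and 10 are bright for most, and Hoxb1 peaks at day 6 or 7.

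The fall and the rise were tested in 1 edgeR fit of the 12 libraries that set days 5 and 6, and days 8 and 10, against day 0 and against each other. This grouping of days was chosen after the data were seen. Of the 39 members, 34 passed the filter on low counts. A member can pass through the stage at which it is high, so the counts and medians below describe those 34 and not all members. Between day 0 and days 5 and 6, 25 members fell and 1, Hoxb1, rose, while 20.9% of all 15179 genes tested were lower and 19% higher at an adjusted p under 0.05. The median log2 change was -2.83 over the 34 members and -0.01 over all genes. With Hoxb5, which had no counts on days 5 and 6, set to 3 counts there, it was -2.63 over the members. Between days 5 and 6 and days 8 and 10, 29 members rose and none fell. Among all genes 26.3% were higher and 24.2% lower in that comparison, and the median log2 change was 4.30 over the members and -0.01 over all genes. From day 0 to days 8 and 10, 19 members were higher and 5 lower, where 29.7% of all genes were higher and 28.2% lower, with medians of 1.62 and 0.04. Fitted in 1 genotype alone, which leaves 2 residual degrees of freedom, the rise was called for 15 of 34 members tested in WT and 17 of 28 in RepB, where 4.45% and 21.6% of all genes were called in either direction. The fall was called for 0 in WT and 3 in RepB, where 0.0391% and 7.36% of all genes were called in either direction. In the fits of 1 genotype day 0 was 1 library, so they cannot show how steady the fall was.

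A further edgeR comparison set the mean of days 5 to 10, each day weighted equally, against day 0. There Hoxb1 and Hoxb2 were higher and 13 members lower, against 31.7% and 32.3% of all genes, with a median log2 difference of -0.48 over the members. Because it averages the near-silent days 5 and 6 with days 8 and 10, this comparison depended on the days used: 19 members were higher when only days 8 and 10 were set against day 0, and 25 were lower when only days 5 and 6 were. A linear slope over days 5 to 10 was positive and past the threshold for 12 of the 14 members that passed the stricter filter of that fit, with a median of 0.92 log2 units per day, while 27.9% of all 12948 genes had a positive and 26.6% a negative slope by the same edgeR test. The exceptions were Hoxb1 at -0.42 ± 0.27 per day (adjusted p = 0.344) and Hoxd1 at 0.53 ± 0.24 per day (adjusted p = 0.209).

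Taken as a sum, markers of fibroblasts, the feeder cell type, were also lowest on days 5 and 6. The summed level of 10 fibroblast and feeder markers was 773 CPM in WT and 875 CPM in RepB at day 0, lay between 67.8 and 146 CPM on days 5 and 6, and reached 9253 CPM in WT and 13741 CPM in RepB at day 10. All 10 had a count at day 0. Single markers differed from the sum: in WT Thy1 was lowest at day 10 (4.51 CPM), Dcn at day 7 (0.267 CPM) and Twist2 at day 0 (0.711 CPM). Lum and Dcn, 2 defining matrix genes of fibroblasts, stood at no more than 0.853 and 2.25 CPM there, whereas Col1a1 stood at 303 CPM in WT and 338 in RepB. The part of these cells in the Hox levels was not tested. In bulk RNA, fewer cells of a type and less RNA per cell cannot be told apart. Of the 10 markers of primitive streak and mesoderm, the summed level was 34.9 CPM in WT and 38.7 CPM in RepB at day 0 and 1591 and 1695 CPM at day 6. The 3 somite markers summed to 30.2 CPM in WT at day 0 and 4.02 CPM at day 10. Tcf15 held 29.2 and 2.16 CPM of these sums, while Meox1 went from 0.355 to 1.47 CPM. The 8 neural markers summed to 102 CPM (WT) and 113 CPM (RepB) at day 0 and 328 and 311 CPM at day 5. At day 10 they summed to 89.7 and 69.7 CPM. Most of the neural sum was Nes, at 61.2, 296 and 50.6 CPM in WT on those 3 days. In WT Sox1, Pax6, Pax3, Lhx2 and Zic1 were higher at day 10 than at day 0, and Nes, Map2 and Neurog2 were lower. In RepB Pax3 and Lhx2 were higher at day 10 than at day 0, and Sox1, Pax6, Zic1, Nes, Map2 and Neurog2 were lower.

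Of paralogue group 1, Hoxb1 (chromosome 11), which patterns the hindbrain, and Hoxd1 (chromosome 2) are described here. Hoxb1 ran as a pulse. Its level at days 0, 5, 6, 7, 8 and 10 was 0.118, 0.338, 9.65, 11.6, 6.96 and 0.980 CPM in WT. RepB cells held 0.0657, 2.27, 21.4, 9.26, 2.23 and 1.07 CPM. It was at or under the floor at day 0 in both genotypes, highest at day 7 in WT and at day 6 in RepB, and near 1 CPM in both at day 10. The rise from day 0 to days 5 and 6 was 6.28 ± 2.32 on the log2 scale (edgeR adjusted p = 0.0164), a fitted value that rests on 3 counts at day 0. As a ratio of CPM it was 73.7, with an exact 95% counting interval of 24.98 to 359. Without day 6 it was 3.33 with an adjusted p = 0.115. Its change from days 5 and 6 to days 8 and 10 was -1.38 ± 0.96 (adjusted p = 0.263), which turned with the day left out: -2.39 (adjusted p = 0.0236) without day 5 and 1.49 (adjusted p = 0.257) without day 6.

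At days 0, 5, 6, 7, 8 and 10 Hoxd1 stood at 3.91, 0.450, 0.694, 8.90, 15.2 and 4.41 CPM in WT. The RepB levels were 3.68, 1.32, 2.15, 7.68, 9.74 and 1.33 CPM. It was highest at day 8 in both genotypes and lower again at day 10, when the WT interval of 3.22 to 5.90 CPM lay above the RepB interval of 0.433 to 3.12 CPM. The rise of Hoxd1 from days 5 and 6 to days 8 and 10 was 2.98 ± 0.65 (edgeR adjusted p = 0.00366). The highest level thus came at day 7 or 6 for Hoxb1 and at day 8 for Hoxd1, in WT or RepB.

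Hoxb2, which acts in the hindbrain and lies next to Hoxb1, did not share its decline. Its level was 1.07, 0.113, 1.11, 6.67, 14.7 and 16.8 CPM in WT on the 6 days. On those days RepB had 0.460, 0.566, 4.16, 12, 20.9 and 20.6 CPM. It was highest at day 10 in WT and day 8 in RepB, with a rise of 3.90 ± 0.62 from days 5 and 6 (edgeR adjusted p = 0.000538). Its paralogue Hoxa2 never passed 0.644 CPM in any library and failed the low-count filter. Of the other anterior members, Hoxb3 and Hoxd3 rose between days 5 and 6 and days 8 and 10, by 3.88 ± 0.70 (adjusted p = 0.000884) and 4.24 ± 0.80 (adjusted p = 0.00054), and Hoxa3 did not pass the test at 1.45 ± 0.75 (adjusted p = 0.121).

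**Figure D2:**
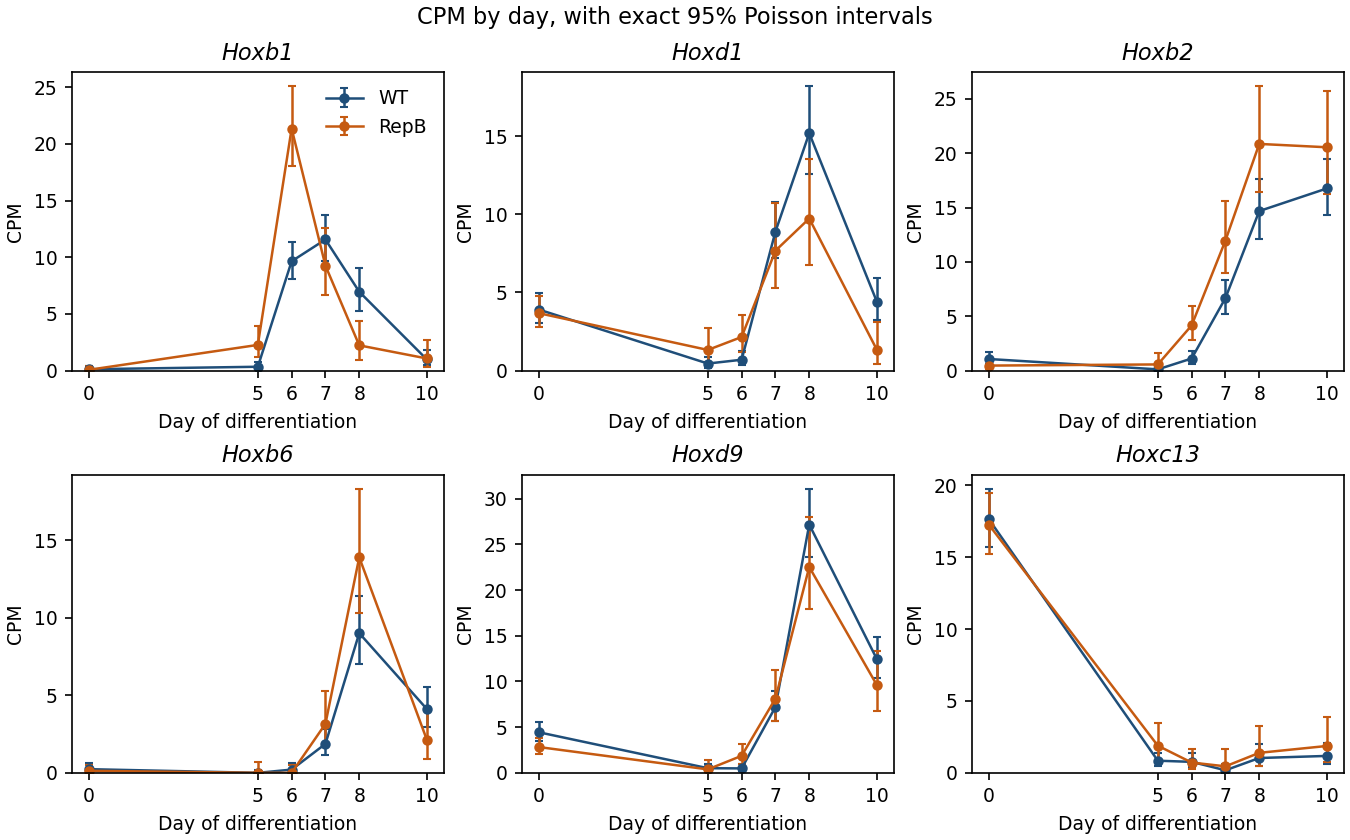
CPM by day for 6 Hox genes in WT (blue) and RepB (orange), with exact 95% Poisson intervals, 1 library per point. Hoxb1 peaks at day 7 (11.6 CPM) in WT and day 6 (21.4 CPM) in RepB and is near 1 CPM at day 10, Hoxb2 and Hoxd9 are high at days 8 and 10, and Hoxc13 is 17.6 and 17.3 CPM at day 0 and at most 1.89 CPM later.

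The central groups, 4 to 8, hold 15 members that pattern the neck and trunk. Of these, 14 passed the filter, 12 of them fell from day 0 to days 5 and 6 and 13 rose from there to days 8 and 10. Among all genes 20.9% fell in the first step and 26.3% rose in the second. Hoxb6 had the highest level per length in this class, with a mean of 2.60 RPKM (CPM per 1000 bases of exon) over days 5 to 10 of both genotypes. At days 0, 5, 6, 7, 8 and 10 it stood at 0.237, 0, 0.208, 1.87, 9.02 and 4.12 CPM in WT. RepB cells held 0.131, 0, 0, 3.16, 13.9 and 2.14 CPM. Its 4 libraries of days 5 and 6 held 3 counts together, against 170 in the 4 libraries of days 8 and 10, a ratio of CPM of 99.6 with an exact 95% counting interval of 33.5 to 488.

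Hoxc6 and Hoxc8 stood at no more than 1.13 CPM from day 5 to day 7 and were then among the most abundant members. Hoxc6 was at 1.36, 0, 0.0694, 0.712, 4.77 and 11.3 CPM in WT. For RepB the levels were 0.853, 0.189, 0, 0.903, 8.62 and 10.4 CPM. Its rise from days 5 and 6 to days 8 and 10 was 7.28 ± 1.02 log2 units (edgeR adjusted p = 1.58e-05), from 2 counts to 222, a ratio of CPM of 195 with a counting interval of 53.4 to 1620. Hoxc8 was at 0.651, 0, 0.208, 0.712, 8.50 and 8.73 CPM in WT. The RepB levels were 0.657, 0, 0, 1.13, 12.8 and 9.88 CPM. Its rise was 6.98 ± 0.86 (adjusted p = 1.35e-05), from 3 counts to 238, a ratio of 139 with an interval of 47.1 to 681.

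Hoxd4 had come up by day 7, a day on which Hoxc6 and Hoxc8 were still near 1 CPM. It stood at 2.43, 0.675, 0.278, 3.03, 9.92 and 7.06 CPM in WT. On those days RepB had 2.89, 0.566, 0.430, 2.48, 11.7 and 6.67 CPM. The rise from days 5 and 6 to days 8 and 10 was 4.21 ± 0.36 (edgeR adjusted p = 1.33e-05). Among the remaining central genes, Hoxb4 reached 11.8 and 12.3 CPM at day 10 and Hoxb8 reached 4.38 CPM in WT and 11.4 CPM in RepB at day 8. Hoxb5 had 0 counts in the 4 libraries of days 5 and 6 and 70 in those of days 8 and 10, which was at least 41.0-fold higher in CPM against a floor of 3 counts over the 4 libraries. With Hoxb5 at the ratio of 41.0 the median rise over the 34 members stayed at 4.30. Hoxa4 was the central member that passed the filter without rising, at 0.85 ± 1.04 (adjusted p = 0.491). The other 6 central members, Hoxa5, Hoxa7, Hoxb7, Hoxc4, Hoxc5 and Hoxd8, rose by 1.5 (Hoxa5) to 4.92 (Hoxc5) log2 units in the same comparison. Hoxa6, with at most 3 counts in a library, failed the filter.

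Promoter sequence is shown for 4 genes with different courses: the pulse gene Hoxb1, the late gene Hoxb8, Hoxd1, which shares its paralogue group with Hoxb1 but not its course, and Hoxb4. The sequences are the 200 bases before the annotated start on the plus strand, from RefSeq on GRCm38.p6, which is not the mm9 build of the counts: Hoxb1 at chr11:96365558-96365757, Hoxb8 at chr11:96281705-96281904, Hoxd1 at chr2:74762780-74762979 and Hoxb4 at chr11:96318067-96318266. Capitals mark TGATNNAT, the core of sites bound by Pbx and Hox proteins together, read on either strand.
Hoxb1: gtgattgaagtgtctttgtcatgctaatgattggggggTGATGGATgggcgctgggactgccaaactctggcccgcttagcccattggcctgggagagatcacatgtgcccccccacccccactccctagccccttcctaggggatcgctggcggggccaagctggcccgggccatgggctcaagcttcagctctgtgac
Hoxb8: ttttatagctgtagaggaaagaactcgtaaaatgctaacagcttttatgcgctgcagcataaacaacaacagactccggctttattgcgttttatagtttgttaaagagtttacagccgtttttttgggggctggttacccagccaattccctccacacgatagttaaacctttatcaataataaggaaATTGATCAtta
Hoxd1: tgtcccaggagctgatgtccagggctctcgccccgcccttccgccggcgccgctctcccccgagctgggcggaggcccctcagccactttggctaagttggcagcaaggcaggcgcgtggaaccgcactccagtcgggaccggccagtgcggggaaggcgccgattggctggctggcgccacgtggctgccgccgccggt
Hoxb4: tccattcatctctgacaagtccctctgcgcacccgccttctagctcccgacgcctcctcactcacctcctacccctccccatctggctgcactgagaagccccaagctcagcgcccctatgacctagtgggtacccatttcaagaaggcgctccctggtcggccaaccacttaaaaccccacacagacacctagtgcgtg
Hoxb1 and Hoxb8 hold 1 such match each in these 200 bases, and Hoxd1 and Hoxb4 hold none. The number of CG pairs is 5 in Hoxb1, 6 in Hoxb8, 21 in Hoxd1 and 8 in Hoxb4, with 62%, 37.5%, 73% and 59.5% of bases G or C.

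Promoters of 300 bases, from 250 before to 50 after the start, were matched by symbol for 22 of the 39 members, with 24 entries. TGATNNAT on either strand was in 4 of the 24 (16.7%) and in 8.85% of all 32851 promoters of that length in the table. The letters TATAAA on either strand were in 4 of the 24 (16.7%) and in 13.6% of all. The ratio of observed to expected CG pairs was above 0.6 in 12 of the 24 and in 35.8% of all promoters, and the median GC content was 57.7% and 52.7%. These are matches of letters, not measured binding or methylation.

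The posterior groups, 9 to 13, hold 16 members that pattern the lumbar and tail regions and the limbs. The 13 that passed the filter fell from day 0 to days 5 and 6, and 11 rose from there to days 8 and 10, against 20.9% and 26.3% of all genes. Hoxd9 led this class after day 0, with a mean of 4.30 RPKM over days 5 to 10. Its level was 4.44, 0.506, 0.486, 7.21, 27.2 and 12.5 CPM in WT. RepB cells held 2.82, 0.378, 1.86, 8.13, 22.5 and 9.61 CPM. It was highest at day 8 and lower at day 10 in both genotypes, and its rise from days 5 and 6 to days 8 and 10 was 4.65 ± 0.51 (edgeR adjusted p = 5.59e-05).

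Hoxc9 was at 0.711, 0, 0, 0.534, 5.80 and 4.31 CPM in WT over the 6 days. For RepB the levels were 1.90, 0, 0.430, 0.226, 7.51 and 4.00 CPM. Hoxa9 had 2.43, 0.225, 0.0694, 0.534, 3.22 and 4.02 CPM in WT and 3.09, 0, 0.287, 0.677, 4.45 and 3.47 CPM in RepB. Both were at a few counts or none on days 5 and 6, and both rose to days 8 and 10, Hoxc9 by 6.04 ± 1.08 (edgeR adjusted p = 0.000135; from 3 counts to 131, a ratio of CPM of 76.7 with a counting interval of 25.7 to 377) and Hoxa9 by 4.55 ± 0.55 (adjusted p = 3.96e-05). Hoxa13, which patterns the digits and the hindgut, was at 1.36, 0.113, 0.625, 2.76, 3.48 and 4.61 CPM in WT. The RepB levels were 2.10, 0.189, 0.143, 4.06, 3.62 and 2.67 CPM. It had reached 2.76 and 4.06 CPM at day 7, ahead of Hoxa9, Hoxa10 and Hoxa11, which were below 1 CPM in both genotypes that day.

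Further posterior members that rose from days 5 and 6 to days 8 and 10 were Hoxa10, Hoxa11, Hoxc10, Hoxd10 and Hoxd11, with log2 changes of 4.36 (Hoxd11) to 6.0 (Hoxd10).

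A few posterior genes were most abundant at day 0, and they are named here after their values were seen. Hoxc13, which is known from hair and nail, was the most abundant Hox gene in the undifferentiated cultures: 17.6, 0.844, 0.763, 0.178, 1.03 and 1.18 CPM in WT. On those days RepB had 17.3, 1.89, 0.717, 0.452, 1.39 and 1.87 CPM. It fell by 4.11 on the log2 scale to days 5 and 6 (edgeR adjusted p = 1.36e-05), and its change from there to days 8 and 10 was 0.50 ± 0.34 (adjusted p = 0.237). Hoxb9 was at 7.70, 0.169, 0.208, 0.623, 2.06 and 2.16 CPM in WT. In RepB Hoxb9 was at 6.57, 0.378, 0.717, 1.81, 1.95 and 4.54 CPM. Hoxd13 stood at 4.32 CPM in WT and 3.74 in RepB at day 0 and at 0.287 to 1.67 CPM from day 5 on. Hoxb13 went from 3.32 CPM in WT and 2.17 CPM in RepB at day 0 to at most 0.294 CPM later. The 5 members lower at days 8 and 10 than at day 0 were Hoxc13, Hoxb13, Hoxb9 and Hoxd13 of the posterior class and the central gene Hoxa4. The posterior class took 54.7% of summed Hox RPKM in WT and 55.2% in RepB at day 0, and 26.7% and 25.5% at day 10. Hoxc11, Hoxc12 and Hoxd12 failed the filter, and none of them passed 0.226 CPM after day 0.

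**Figure D3:**
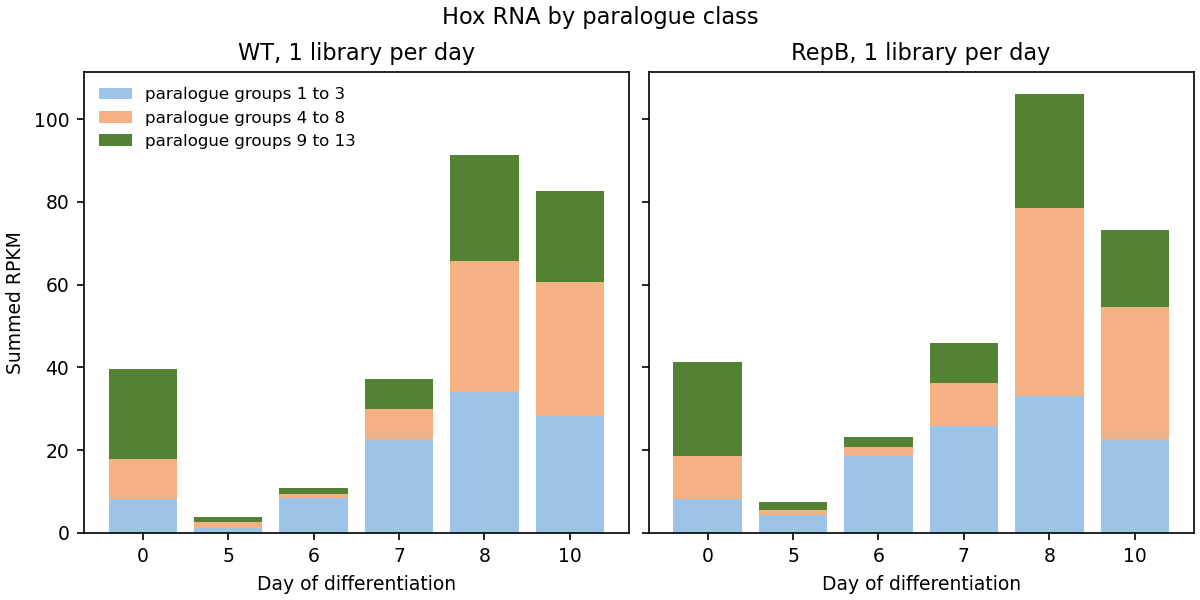
Summed RPKM of the Hox genes by paralogue class (stacked bars: groups 1 to 3, 8 members; 4 to 8, 15 members; 9 to 13, 16 members) for each day in WT and RepB, 1 library per bar. Groups 9 to 13 make up 54.7% and 55.2% of the bar at day 0, groups 1 to 3 make up 77.8% in WT and 80.8% in RepB at day 6, and at day 10 the 3 classes are more even.

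As a sum, the anterior class led on days 6 and 7, but not through all of its genes. In RepB Hoxb1 alone held 21.4 of the 39.8 CPM of this class at day 6. In WT Hoxa3 and Hoxd3 first reached 1 CPM at day 8, and Hoxa2 never did. At day 6, groups 1 to 3 took 77.8% of Hox RPKM in WT and 80.8% in RepB, and at day 7 they took 61.1% and 56.2%. By day 8 the shares of groups 1 to 3, 4 to 8 and 9 to 13 were 37.2%, 34.7% and 28.1% in WT and 31.1%, 42.8% and 26.0% in RepB. Among members at 1 CPM or more after day 0, the highest day was 7 for 1, 8 for 12 and 10 for 19 of 32 in WT, and 5, 6 and 7 for 1 each, 8 for 21 and 10 for 7 of 31 in RepB. The first day from day 5 on which a gene stood at 1 CPM was day 7 or earlier for 13 members in WT and 18 in RepB, day 8 for 19 and 13, and never for 7 and 8. The floor of 3 counts stood at 0.430 to 0.835 CPM in the RepB libraries of days 5 to 10 and at 0.169 to 0.386 CPM in those of WT, so first days are less precise in RepB. With a threshold of 2 CPM, 8 members in WT and 11 in RepB had come up by day 7. In the Hoxb cluster 6 of 10 members in WT and 7 of 10 in RepB had reached 1 CPM by day 7, whereas in the Hoxc cluster 1 of 9 and 3 of 9 had.

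To describe the order by 1 number per gene, the mean day was weighted by CPM over days 5 to 10 for members that reached 1 CPM. The median weighted day was 8.28 in WT and 7.70 in RepB for groups 1 to 3, 8.76 and 8.54 for groups 4 to 8, and 8.68 and 8.46 for groups 9 to 13. Hoxb1 was the earliest gene in both genotypes, at 6.99 in WT and 6.43 in RepB, and Hoxa10 the latest, at 9.32 and 9.06. Across the genes of 1 cluster, which are not independent of each other, Spearman's rho between paralogue number and weighted day was 0.67 in WT and 0.54 in RepB for Hoxa (8 and 7 genes). It was 0.05 and 0.48 for Hoxb (9 genes), -0.18 and -0.07 for Hoxc (7 genes), and 0.07 and 0.31 for Hoxd (8 genes). All genes shared the same libraries and some were near the floor, so these values are a description. By the class median groups 1 to 3 came before both other classes, and groups 4 to 8 and 9 to 13 lay next to each other. Single anterior genes could be late: Hoxb3 stood at 8.82 and Hoxd3 at 8.68 in WT, and at 8.26 and 8.31 in RepB.

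Whether RepB cells differed from WT cells was asked with day as a factor over the 5 matched days from 5 to 10. By edgeR, 0 members were higher and 0 lower in RepB at an adjusted p under 0.05, where 1.51% of all genes were higher and 0.771% lower. At an unadjusted p under 0.05 there were 3 of 34, Hoxb2, Hoxb9 and Hoxb8, a smaller share than the 2271 of all 15179 genes at that level, and DESeq2 called 0. The fitted difference was above 0 for 30 of the 34 members tested, with a median of 0.32 on the log2 scale, against 49.5% of all genes and a median of -0.002 over them. The median over the members was 0.18 without day 8 and 0.56 without day 10. All members were read in the same libraries of 1 time course per genotype and are not independent of each other. Their common sign is therefore a description and no test of genotype.

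Hoxb2 had the lowest p of the members, with a difference of 0.80 ± 0.23 (95% interval 0.31 to 1.30, adjusted p = 0.100), and was higher in RepB on 5 of 5 days. Without the low-count filter it was 0.79 with an adjusted p = 0.0348, the 1 member called under any alternative run. Hoxb9 differed by 0.98 ± 0.35 (edgeR adjusted p = 0.196) and Hoxb8 by 0.78 ± 0.35 (adjusted p = 0.327), each higher in RepB on 4 of 5 days. The interval was -0.49 to 0.58 for Hoxd9 and -0.45 to 0.56 for Hoxd4. For Hoxb1 the interval of -0.49 to 1.18 covers opposite differences by day: 2.27 CPM in RepB against 0.338 CPM in WT at day 5, and 2.23 against 6.96 CPM at day 8.

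**Figure D4:**
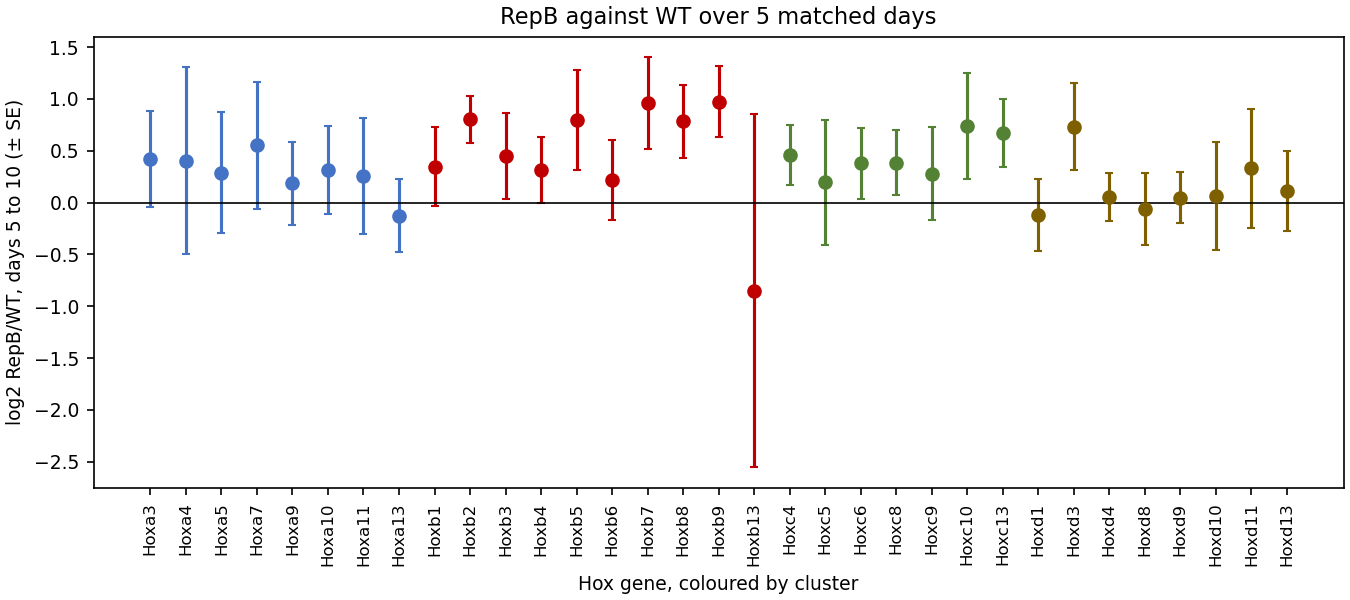
Fitted log2 difference of RepB from WT over days 5 to 10 for 33 of the 34 members tested, with its standard error, coloured by cluster and ordered by paralogue number within a cluster. Of the 33 points 29 lie above 0, with the Hoxb genes Hoxb2, Hoxb7 and Hoxb9 between 0.80 and 0.98, and none passed the adjusted threshold.

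At days 0, 5, 6, 7, 8 and 10 the Hoxb genes summed to 16.2, 1.18, 11.5, 27.8, 55.4 and 53.2 CPM in WT. Their RepB sum was 15.8, 3.78, 29.1, 34.3, 77.3 and 58.2 CPM. The Hoxa sum was 22.7, 2.98, 7.08, 23.8, 39.5 and 47.7 CPM in WT and 27.5, 6.23, 11.3, 30.0, 39.8 and 30.2 CPM in RepB. Hoxc came to 27.9, 1.52, 2.01, 3.83, 26.7 and 35.6 CPM in WT and 29.5, 3.21, 2.72, 5.87, 42.6 and 35.2 CPM in RepB, with the lowest sum of the 4 clusters at day 7 in both. Hoxd came to 18.2, 2.81, 2.08, 21.7, 67.8 and 38.2 CPM in WT and 16.6, 3.02, 5.88, 23.0, 59.0 and 30.4 CPM in RepB.

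The log2 ratio of these sums, RepB to WT, over the 5 days had a mean of 0.71 ± 0.57 (SD, n = 5 days) for Hoxb, 0.49 ± 0.34 for Hoxc, 0.26 ± 0.62 for Hoxa and 0.19 ± 0.65 for Hoxd. Hoxb was higher in RepB on 5 of 5 days, Hoxa and Hoxc on 4 and Hoxd on 3. For Hoxb the ratio was 1.35, 1.30, 0.30, 0.48 and 0.13 on days 5, 6, 7, 8 and 10. For Hoxa it was 0.95, 0.64, 0.33, 0.01 and -0.65 on the same days. Hoxc had 0.88, 0.36, 0.56, 0.66 and -0.01, and Hoxd had 0.09, 1.30, 0.08, -0.20 and -0.32. The ratio was thus largest on day 5 for Hoxa, Hoxb and Hoxc and on day 6 for Hoxd. At day 5 the RepB sums of Hoxa, Hoxb, Hoxc and Hoxd rest on 33, 20, 17 and 16 counts. The difference in slope between genotypes passed the threshold for 0 of 14 members by edgeR and DESeq2, with 0 at an unadjusted p under 0.05 and 0% of all genes called in either direction. On the same days the streak gene T stood at 124 CPM in RepB against 46.1 in WT at day 5 and 16.4 against 57.7 at day 8. The 10 fibroblast and feeder markers summed to 3047 CPM in RepB and 1459 in WT at day 8, the 3 blood markers to 330 and 45.3 CPM, and the 4 forebrain and midbrain markers to 27.5 and 94.7 CPM. The part of these cell types in the ratios was not tested.

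The allele columns give reads assigned to a CAST/Ei (cas) or a 129 (mus) allele, between 25.5% and 26.7% of a library's total. Of the 4 clusters, Hoxb had reads of both alleles in quantity. Over days 5 to 10 of both genotypes, cas reads made up 303 of 699 allelic counts of Hoxb, or 43.3% (exact 95% Clopper-Pearson interval 39.6% to 47.1%). In the Hoxa cluster they were 1 of 104 (0.962%), in Hoxc 2 of 74 (2.70%) and in Hoxd 4 of 317 (1.26%). The genes around these clusters were alike: among genes with at least 100 allelic counts within 1 Mb of the cluster the median cas share was 1.60% at Hoxa (10 genes), 1.16% at Hoxc (32 genes) and 1.13% at Hoxd (7 genes). At Hoxb it was 47.7% (35 genes), with 32 of the 35 between 25% and 75%. The near absence of cas reads at Hoxa, Hoxc and Hoxd was thus shared by most genes next to them, and no allelic comparison was made for those members.

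**Figure D5:**
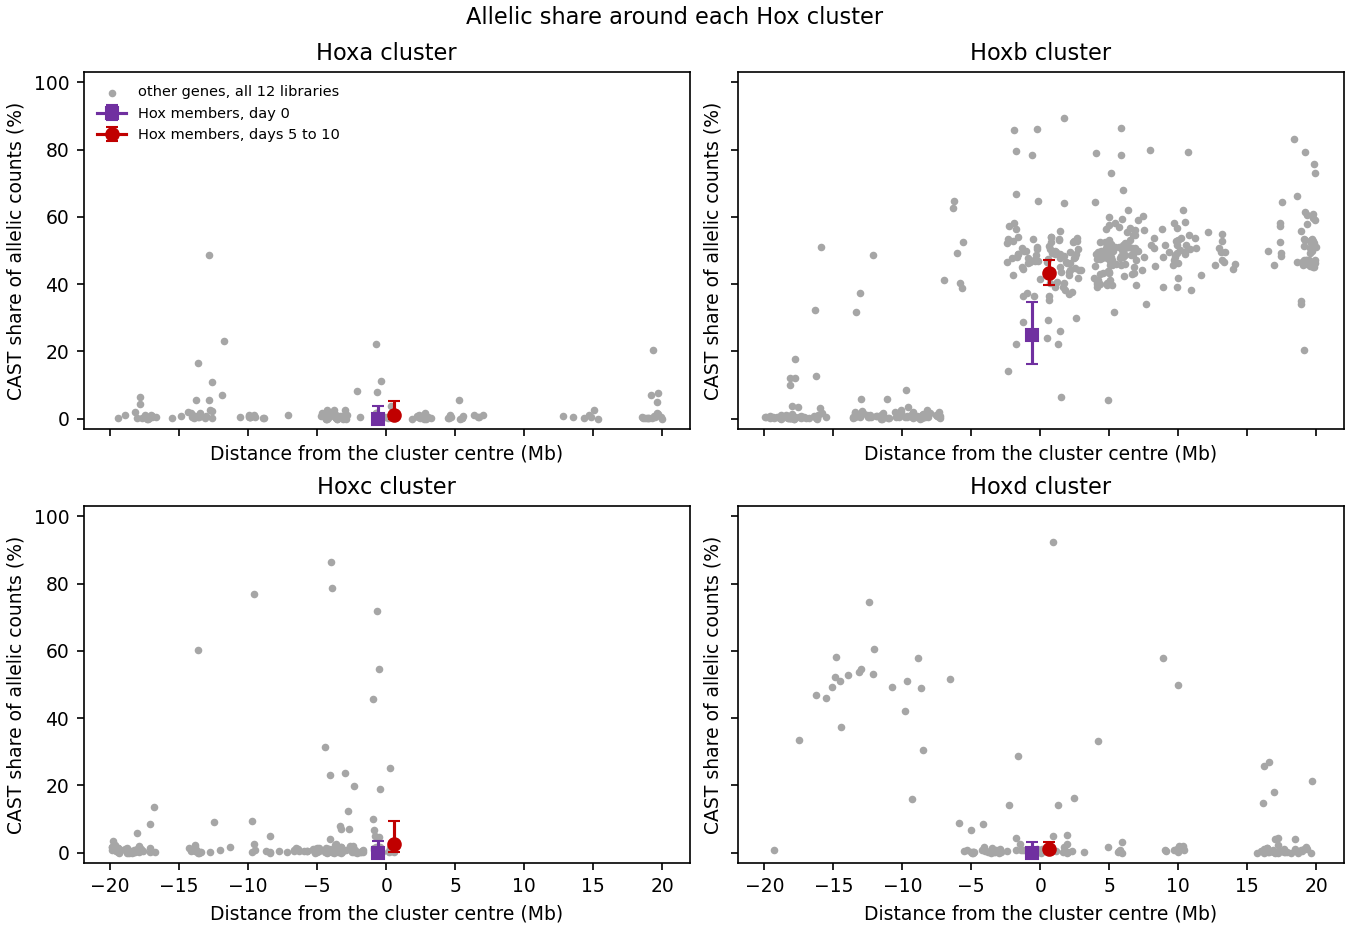
Share of cas reads among allelic counts (vertical axis, percent) for genes with at least 100 allelic counts within 20 Mb of the centre of each Hox cluster (grey, all 12 libraries together), and for the Hox members of that cluster at day 0 (square) and at days 5 to 10 (circle), with 95% Clopper-Pearson intervals, the symbols set slightly apart sideways for legibility. Hoxb lies next to genes near 50%, with 24.7% at day 0 and 43.3% at days 5 to 10, while Hoxa, Hoxc and Hoxd lie next to genes near 0. Farther off this changes on 1 side of Hoxb and Hoxd. Most genes from -19.9 to -7.24 Mb of Hoxb are near 0, and most from -17.5 to -6.51 Mb of Hoxd are nearer 50%.

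Within Hoxb the share at day 0 was 24.7% of 93 allelic counts over both genotypes (16.4% to 34.8%), an interval below that of days 5 to 10. In RepB it was 18.4% of 49 at day 0 (8.76% to 32.0%) and 42.4% at days 5 to 10 (36.4% to 48.5%), which do not overlap. In WT it was 31.8% of 44 (18.6% to 47.6%) and 44.0% (39.2% to 48.8%), which do overlap. Neighbours within 1 Mb that had at least 50 allelic counts in a stage had a median share of 49.3% at day 0 (35 genes, quartiles 44.0% and 52.7%) and of 48.9% at days 5 to 10 (37 genes). Hoxb9, the largest contributor at day 0, had 9 cas reads of 41 at day 0 (22.0%, 10.6% to 37.6%). At days 5 to 10 it had 4 of 16, with an interval of 7.27% to 52.4%, too wide to show whether its share changed. Hoxb7 had 5 of 13 at day 0 (38.5%, 13.9% to 68.4%). Its share at days 5 to 10 was 9 of 22 (40.9%, 20.7% to 63.6%). Hoxb4 had 2 of 12 at day 0 (16.7%, 2.09% to 48.4%), an interval that overlaps its later one given below. The pooled shares weight the genes differently at the 2 stages, and the effect of this was not tested. Hoxb1 had 97 of 249 at days 5 to 10 (39.0%, 32.9% to 45.3%), Hoxb2 93 of 197 (47.2%, 40.1% to 54.4%) and Hoxb4 38 of 68 (55.9%, 43.3% to 67.9%).

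Of the 7 fibroblast and feeder markers whose alleles were examined, Col1a1 lies on the same chromosome as Hoxb and was singled out after its values were seen: 23 of 1939 allelic counts were cas at day 0 (1.19%, 0.753% to 1.77%) and 8199 of 14229 at days 5 to 10 (57.6%). Of the other 6 markers, Col1a2 and Thy1 had both alleles in quantity at days 5 to 10, and their cas share was lower at day 0. The cas share went from 18.6% at day 0 to 69.7% at days 5 to 10 in Col1a2 and from 49.4% to 63.0% in Thy1. It went from 34.0% to 1.33% in Postn and from 4.49% to 0.901% in Fbn1, was 2.06% and 2.40% in Col3a1, and was 0.181% and 0.135% in Pdgfrb. In Postn, Fbn1, Col3a1 and Pdgfrb cas reads were few at days 5 to 10, so a lower share at day 0 could hardly be seen there. The part of fibroblasts in the Hoxb share was not tested. The same comparison could not be made for Hoxc13 or Hoxd13, whose regions held few cas reads at any stage.

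Levels of the Hox cofactors differed in their course. Of 9 cofactor genes, 5 rose from day 0 to days 5 and 6 and 7 rose from there to days 8 and 10, with none lower in either step, against 19% and 26.3% of all genes that rose. Pbx2 stood at 57.8, 104, 113, 146, 155 and 193 CPM in WT over the 6 days, and its first rise was 0.91 log2 units (edgeR adjusted p = 0.000555). Meis2 stood at 4.20, 10.4, 19.4, 49.5, 87.5 and 192 CPM in WT, and it rose again from days 5 and 6 to days 8 and 10, by 3.20 (adjusted p = 7.4e-05). Meis1, named after its values were seen, stood at 0.394 CPM at day 5, 1.80 at day 6, 19.7 at day 8 and 42.6 at day 10 in WT. Between RepB and WT, 0 of the 9 passed the threshold by edgeR.

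Genes of the posterior axis that act with or before Hox were also followed. Cdx2, a caudal factor, stood at 0.0592, 0.506, 8.74, 35.2, 72.6 and 22.7 CPM in WT. RepB cells held 0.394, 0.566, 9.46, 30.5, 64.0 and 16.8 CPM, and day 8 held the highest value in both. Evx1, a homeobox gene next to the posterior end of Hoxa, stood at 0.355, 7.09, 148, 171, 83.2 and 16.2 CPM in WT. For RepB the levels were 0.853, 17.6, 146, 164, 27.3 and 11.2 CPM, so that it was high on days 6 and 7, as Hoxb1 was. Of 9 caudal axis and tail bud signals, 4 rose from day 0 to days 5 and 6, where 19% of all genes rose. From there to days 8 and 10, 4 fell and 2 rose, against 24.2% and 26.3% of all genes. Fgf8 was highest at day 6, with 211 CPM (WT) and 223 CPM (RepB). Of the 6 ParaHox and caudal genes 3 passed the filter, and Cdx2 was the 1 that rose from day 0 to days 5 and 6.

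Of 11 retinoic acid pathway genes, 4 rose and 3 fell from day 0 to days 5 and 6, and 3 rose and none fell from there to days 8 and 10. Among all genes 19% rose and 20.9% fell in the first step, and 26.3% rose and 24.2% fell in the second. With 11 genes these counts are a description only. Cyp26a1, which degrades retinoic acid, stood at 0.770, 4.22, 125, 104, 41.0 and 4.22 CPM in WT and was high on the days of Hoxb1. Rara, a receptor of retinoic acid, fell from day 0 to days 5 and 6, with a log2 change of -1.38 (edgeR adjusted p = 0.000293). From there to days 8 and 10 Rara rose by 0.97 (edgeR adjusted p = 0.000664). Crabp2, a carrier of retinoic acid, was the pathway gene that differed between genotypes, with a log2 difference of -0.88 (adjusted p = 0.00984). Of 13 Polycomb and Trithorax genes in the table, 4 rose and 5 fell from days 5 and 6 to days 8 and 10, near the 26.3% and 24.2% of all genes. Phc1 and Cbx7, subunits of Polycomb complex 1, fell in that step, by 2.10 and 1.93 on the log2 scale (adjusted p = 4.58e-05 and 0.00016). Ezh2, the methyltransferase of Polycomb complex 2, had a log2 change of -0.06 (adjusted p = 0.768). Between RepB and WT, 0 of the 13 passed the threshold.

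Noncoding RNAs of the clusters were low, and 7 of the 11 in the table passed the filter. From days 5 and 6 to days 8 and 10, 5 of them rose and 1 fell, against 26.3% and 24.2% of all genes. Haglr, which is transcribed from the Hoxd cluster beside Hoxd1, stood at 0.474, 0.394, 1.32, 4.72, 12.4 and 2.84 CPM in WT and, like Hoxd1, was highest at day 8. Halr1, from beside the Hoxa cluster, went the other way, at 14.3, 1.86, 0.763, 0.178, 0.258 and 0 CPM in WT, and fell by 3.13 on the log2 scale to days 5 and 6 (edgeR adjusted p = 0.000495). Hotair and Hottip were at 0.294 CPM or less in every library. Hox neighbours and their antisense RNAs overlap, and the strand setting of the counting is not given in the sources used here, so pairs such as Hoxa11 and Hoxa11os could not be told apart with certainty.

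The genes that flank the clusters were followed for comparison. Among all genes 26.3% rose and 24.2% fell from days 5 and 6 to days 8 and 10. From days 5 and 6 to days 8 and 10, 0 of 3 Hoxa flanking genes rose and 1 fell, 0 of 6 Hoxb flanking genes rose and 4 fell, 3 of 6 Hoxc flanking genes rose and none fell, and neither of 2 Hoxd flanking genes passed the test. The median change was -0.09, -0.75, 0.49 and 0.18 on the log2 scale for the flanks of Hoxa, Hoxb, Hoxc and Hoxd, against 2.53, 4.22, 5.12 and 4.30 for the members tested in those clusters. Calcoco2, beside Hoxb, was the flanking gene that differed between genotypes, higher in RepB by 1.02 (edgeR adjusted p = 0.0056).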

How the data were processed

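RNA was sequenced from 12 libraries after oligo(dT) selection with a directional kit, per the labels. The authors deposited read counts per gene without normalization, as total counts and as counts assigned to the cas or mus allele, with the exon length of each gene as the other column used. The submitters' processing notes name mm9, Novoalign, TopHat, SAMtools, bedtools and featureCounts. Their roles, the strand setting and the treatment of reads that fit several genes are not given in the sources used here. Another 6 count columns of a day without a matching RNA sample were not used.

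CPM is the count scaled by the library total, and RPKM is CPM per 1000 bases. Tests across all genes used edgeR 4.0.16 (quasi-likelihood, TMM, filterByExpr, Benjamini-Hochberg adjustment, threshold 0.05) in R 4.3.3, with 4 residual degrees of freedom in the fit with days as a factor 7 in those of stages and slopes and 6 in that of the slope difference. The biological coefficient of variation was 12.2%. Standard errors came from the information matrix. The tests of genotype and slope were tested on simulated data. Alternatives were DESeq2 1.42.0, RLE scaling, no filter, no day term, counts thinned to the shallowest library and each day left out. Ratios of cluster sums used a pseudocount of 0.5 CPM. The members and lists were chosen with earlier results of these data known. Values by library are given for the 3 members of highest mean RPKM in each cluster and for paralogue group 1, and up to 4 genes of a list are named by mean CPM or by a call between genotypes, with exceptions chosen after their values were seen. Some items are not reported here by name.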

Additional observations from a re-analysis of the deposited data

How the results depend on the processing

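With no low-count filter, 1 member (Hoxb2) was higher in RepB, where 0 were in the fit reported. Of all genes, 592 of 20027 were called in either direction without the filter and 346 of 15179 in the fit reported. No other alternative called a member between RepB and WT, and none called a slope difference. For days 5 to 10 against day 0, members higher numbered 1 without the day term, 1 with days 5 and 6 only and 19 with days 8 and 10 only, and 2 to 8 when a day was left out (8 without day 5, 5 without day 6). Members lower numbered 8 by DESeq2, 4 without the day term, 6 in thinned counts, 25 and 5 with the early and late days only, and 9 to 18 when a day was left out. The number of all genes called, in either direction, also moved. It was 9724 of 15179 in the fit reported, 8390 by DESeq2 and 3871 without the day term. In thinned counts it was 7995 of 13767. With the early and late days only it was 6050 and 8786 of 15179, and 9094 to 10342 when a day was left out. Without the day term the sign of Hoxc10 changed, to 0.0817. Positive slopes numbered 26 without the filter (39 members tested), 4 in thinned counts (6 tested) and 10 to 19 when a day was left out (19 without day 7). A negative slope was called for 0 to 1 member, Hoxb1 without day 5. Slopes of either sign were called for 7056 of 12948 genes in the fit reported and 8020 of 19559 without the filter. They were called for 6188 of 11882 genes in thinned counts and for 5094 to 7443 when a day was left out. For the groups of days added after seeing the data, each genotype alone gave 0 (WT) and 0 (RepB) members higher and 0 and 3 lower at days 5 and 6 than at day 0. It gave 15 and 17 higher at days 8 and 10 than at days 5 and 6, and 1 and 5 higher and 1 and 1 lower at days 8 and 10 than at day 0. Members lower at days 8 and 10 than at day 0 numbered 2 of 26 tested in thinned counts, where 54.8% of all genes were called in either direction. With a threshold of 2 CPM, 8 members in WT and 11 in RepB had come up by day 7, against 13 and 18 at 1 CPM. The cause of these differences was not tested. Depth limits what single RepB libraries show below 1 CPM. At days 5 and 6 against day 0, members higher numbered 0 to 1 when a day was left out, and at days 8 and 10 against days 5 and 6 members lower numbered 0 to 1.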
